A study of Rattus norvegicus with 4 samples.

Results

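Of the 4 rat liver libraries of the study, 2 were set directly against each other, 1 from a rat anesthetized for 6 h with desflurane and 1 from a rat anesthetized for 6 h with sevoflurane. Members were chosen by the labels for agent and time. All 4 rats were labelled wild type, the inhaled concentration was 6% for desflurane and 4.5% for sevoflurane, and each agent had its own control, a rat killed as soon as it lost consciousness (0 h). RNA came from pieces of liver kept in RNAlater and was sequenced as stranded total RNA. The sources used here do not give strain, sex, age or the hour at which each anesthetized rat was killed. The controls were harvested 6 h apart from the anesthetized rats. In a difference from a control, agent and hour therefore cannot be told apart. With 1 rat in each group, no value has a replicate error and no p-value was computed, and the agent, its concentration and the individual animal cannot be told apart.

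Sevoflurane and desflurane are fluorinated ethers that are inhaled to keep patients and animals asleep. The liver meets such agents with drug-metabolizing enzymes, above all cytochromes P450 and the enzymes that couple drugs to glucuronic acid, sulfate or glutathione. It is also the organ that releases glucose in fasting and stress, makes bile acids and cholesterol, and changes many transcripts with the hour of the day.

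Expression was compared as deposited TPM, a transcript abundance corrected for gene length and library size, over 16999 named genes. Genes were called at a ratio above 2 between the libraries, provided that the larger value exceeded a TPM of 2. Differences are given on the log2(TPM + 1) scale as desflurane minus sevoflurane, which understates changes of low genes, and the control difference is the same quantity at 0 h. The deposited depth was similar for both 6 h libraries (5.57 Gb of aligned bases for desflurane and 5.38 Gb for sevoflurane) and for the desflurane control (5.29 Gb), and was lowest in the sevoflurane control (3.50 Gb). All 20 hepatocyte markers were above the minimum, and albumin alone held at least 6.91% of the summed TPM in each library.

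Of 8229 genes above the minimum at 6 h, 182 (2.21%) were higher and 146 (1.77%) lower in desflurane, together 3.99%. Counts of called members in each list or family below are to be read against these shares. The most separated genes higher in desflurane were *Gdf15*, a stress-induced hormone, *Cdkn1a*, the cell cycle inhibitor p21, and *Phgdh*, the first enzyme of serine synthesis. Most separated on the lower side were *Cyp2c12*, a cytochrome P450, *Ltc4s*, the synthase of leukotriene C4, and *Acyp1*, an acylphosphatase, and among genes with a TPM of at least 50 in the higher library *Cyp7a1*, the rate-limiting enzyme of bile acid synthesis, followed *Cyp2c12*. By the same rule the pair of controls differed in 2.76% of 8263 genes, with 1.96% higher and 0.799% lower in the desflurane control. Single rats at 0 h were thus also apart in many genes, and control values stand beside most of the 6 h values for that reason.

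**Figure D1:**
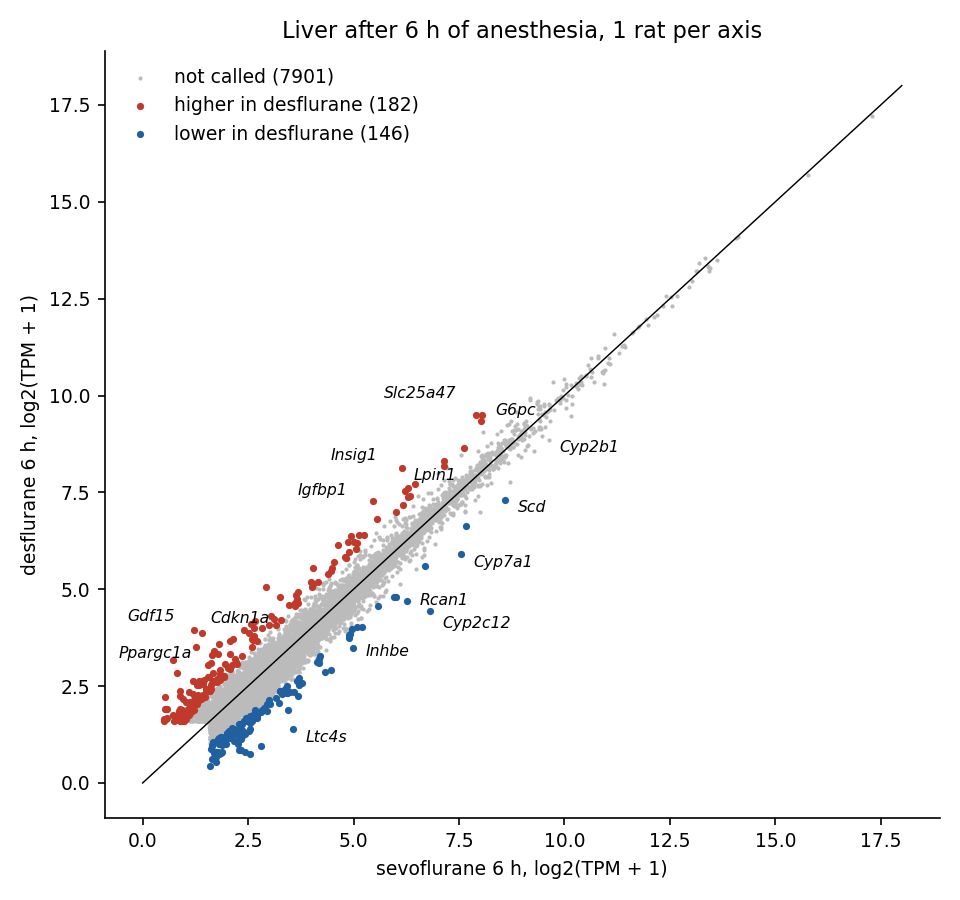
Log2(TPM + 1) of each of 8229 genes in the sevoflurane 6 h liver (horizontal axis) and the desflurane 6 h liver (vertical axis), 1 point per gene and 1 rat per axis, with the line of equal values in black. The 182 genes higher in desflurane (red) and the 146 lower (blue) lie mostly at low levels, and *Insig1*, *Slc25a47* and *G6pc* stand out among abundant genes.

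Most called genes were not called between the controls, but a larger share of them was called there than of all genes. Of the 182 higher genes, 14 (7.69%) were called in the same direction at 0 h, 7 (3.85%) in the opposite direction and 161 in neither. Of the 146 lower genes, 6 (4.11%) were called in the same direction at 0 h and 8 (5.48%) in the opposite one. Over all genes, 1.96% were called higher and 0.799% lower at 0 h. The control difference had the same sign in 122 higher and 54 lower genes, and it was positive in 5815 of all 8229 genes. The 6 h difference exceeded the control difference by over 1 on the log2 scale in 71 higher and 87 lower genes. Across 7326 genes above a TPM of 2 in all 4 libraries, the differences at 6 h and at 0 h had a Pearson correlation of -0.0086 and a Spearman correlation of -0.011, which describes genes of 4 rats and not independent replicates. The median difference over all genes was -0.03 at 6 h and 0.12 at 0 h. At 6 h, 3778 of the 8229 genes had positive differences and 4451 negative ones. Counts of signs in each list or family below are to be read against these.

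**Figure D2:**
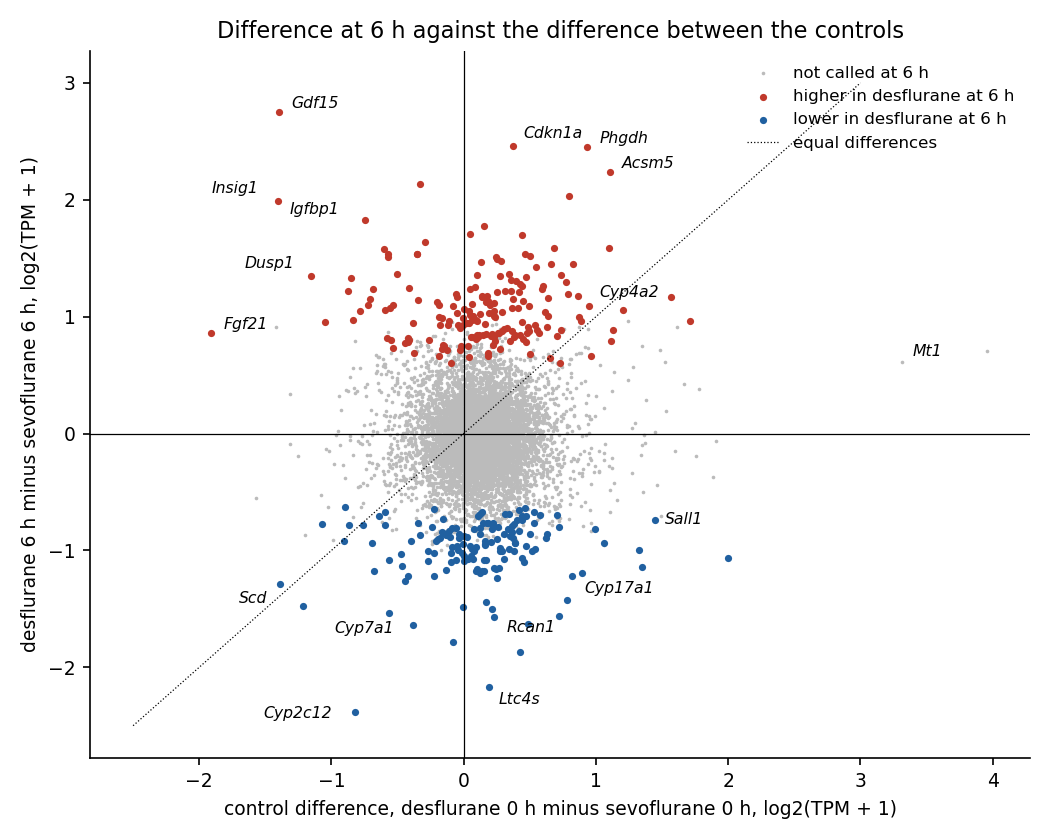
Difference of log2(TPM + 1) between desflurane and sevoflurane at 6 h (vertical axis) against the same difference between the controls (horizontal axis), 1 point per gene, with called genes in red and blue. *Scd* and *Cyp4a2* lie close to the dotted line of equal differences, whereas *Gdf15*, *Insig1*, *Fgf21* and *Dusp1* were lower in the desflurane control and higher in desflurane at 6 h.

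The side on which the 6 h libraries had moved from their own controls differed between the directions. The rule called 8.75% of genes between sevoflurane 6 h and its control (5.04% higher and 3.71% lower at 6 h) and 9.65% between desflurane 6 h and its control (4.10% higher and 5.55% lower). Among the 182 higher genes, 45 were raised from the control in desflurane alone, 26 were raised in both agents, 26 were lowered in sevoflurane alone and 72 were called against neither control. Among the 146 lower genes, 77 were lowered from the control in desflurane alone, 20 were raised in sevoflurane alone and 40 were called against neither control. These counts share the 6 h libraries with the comparison itself.

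A ratio of 2 was more frequent at low levels in both pairs of rats. At a mean TPM of 2 to 5, 6.10% of genes were apart by more than 2-fold at 6 h and 4.05% at 0 h. At a mean TPM of at least 100 these shares were 2.26% and 0.848%. Of the higher genes 81, and of the lower genes 90, had a TPM of at most 5 in the higher library, while 28 and 8 had at least 50. With a minimum TPM of 5 in place of 2, 101 genes were higher and 56 lower. No called gene was listed at 0 in the lower library.

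Genes of the amino acid stress response were the clearest group on the higher side. This response, carried by the transcription factor ATF4, raises enzymes that make and import amino acids when amino acids run short or protein folding is disturbed. Of 27 members above the minimum, 11 were higher and 1 was lower in desflurane, against 2.21% and 1.77% over all genes. The median difference was 0.73 against -0.03 over all genes, and the control median of the list was 0.22. *Phgdh* had a TPM of 2.44 in sevoflurane 0 h, 0.645 in sevoflurane 6 h, 5.56 in desflurane 0 h and 7.999 in desflurane 6 h, and was called higher in desflurane at both times. *Psat1*, the next enzyme of serine synthesis, read 3.75, 2.06, 4.65 and 7.59 in the same order. *Asns*, which makes asparagine, read 2.56, 1.304, 4.203 and 5.197. For these enzymes the sevoflurane 6 h library was the lowest of the 4, and desflurane 6 h the highest.

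The signals of the same response behaved unequally. *Gdf15* read 4.53 in sevoflurane 0 h, 1.31 in sevoflurane 6 h, 1.10 in desflurane 0 h and 14.5 in desflurane 6 h, an 11.1-fold difference at 6 h, after a control difference of -1.40. *Fgf21*, a liver hormone of fasting, was higher in desflurane at 6 h (5.52 against 2.59) yet its highest value was in the sevoflurane control (25.1, with 5.94 in the desflurane control). Its 6 h difference thus lay within a range that the controls exceeded. *Atf3*, a stress-induced transcription factor, read 0.861, 0.855, 1.04 and 4.14, so that desflurane 6 h alone stood apart. *Nupr1*, a small stress-induced chromatin protein, read 33.3, 31.3, 44.8 and 73.6. *Inhbe*, the liver-made activin E chain, went the other way with 61.1, 30.7, 71.2 and 10.2, lowest in desflurane 6 h. *Atf4* itself was not called (79.0 in sevoflurane 6 h and 68.5 in desflurane 6 h, with controls of 129 and 89.7). *Ddit3* (9.16 and 9.20, with controls of 6.57 and 7.21) and *Trib3*, an inhibitor of the response (9.86 and 18.9, with controls of 4.97 and 3.02), were not called either.

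Immediate early genes, which respond within minutes to hours to hormones, growth factors and stress, formed the other large group. Of 32 members above the minimum, 11 were higher and 1 (*Dusp6*) was lower in desflurane, against 2.21% and 1.77% over all genes. Their median was 0.55, with a control median of 0.12. *Dusp1*, a phosphatase that switches off MAP kinases, read 24.9 in sevoflurane 0 h, 28.2 in sevoflurane 6 h, 10.7 in desflurane 0 h and 73.1 in desflurane 6 h. *Jund*, an AP-1 subunit, read 27.2, 15.4, 17.95 and 45.5, and *Btg2*, an antiproliferative regulator, read 5.23, 4.30, 3.89 and 14.4. In all of these the desflurane control was the lower control and desflurane 6 h the highest library. *Maff*, a small MAF transcription factor, was near 0 in both controls (0.116 and 0.154) and read 2.25 in sevoflurane 6 h and 9.63 in desflurane 6 h. *Jun* fell just short of the rule, with 20.2 and 40.02 and controls of 7.803 and 7.27, while *Junb* was close between the agents at 6 h (15.97 and 17.9, with controls of 10.2 and 6.65) and *Fosb* was listed at 0 in every library.

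Of 17 p53 targets above the minimum, 6 were higher and none was lower, against 2.21% and 1.77% over all genes. Their median was 0.45, but between the controls 14 of these 17 were positive too, with a median of 0.31. Over all genes 5815 of 8229 were positive there, with a median of 0.12. Of all 21 p53 targets found, 1 was called higher and 2 were called lower at 0 h. *Cdkn1a* read 3.10 in sevoflurane 0 h, 1.64 in sevoflurane 6 h, 4.30 in desflurane 0 h and 13.5 in desflurane 6 h, an 8.25-fold difference. *Tp53inp1* read 12.9, 36.96, 17.004 and 83.1 and *Plk3*, a stress kinase, 0.856, 5.19, 1.04 and 12.98, so both were raised at 6 h in both agents and more so in desflurane. The other members called were *Gdf15*, *Btg2* and *Gadd45a*. Of the 6 called, only *Tp53inp1* stands in no other list, so the lists do not count separate genes. *Gadd45a*, a growth arrest gene, was called higher in desflurane also at 0 h (11.7 against 4.48).

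**Figure D3:**
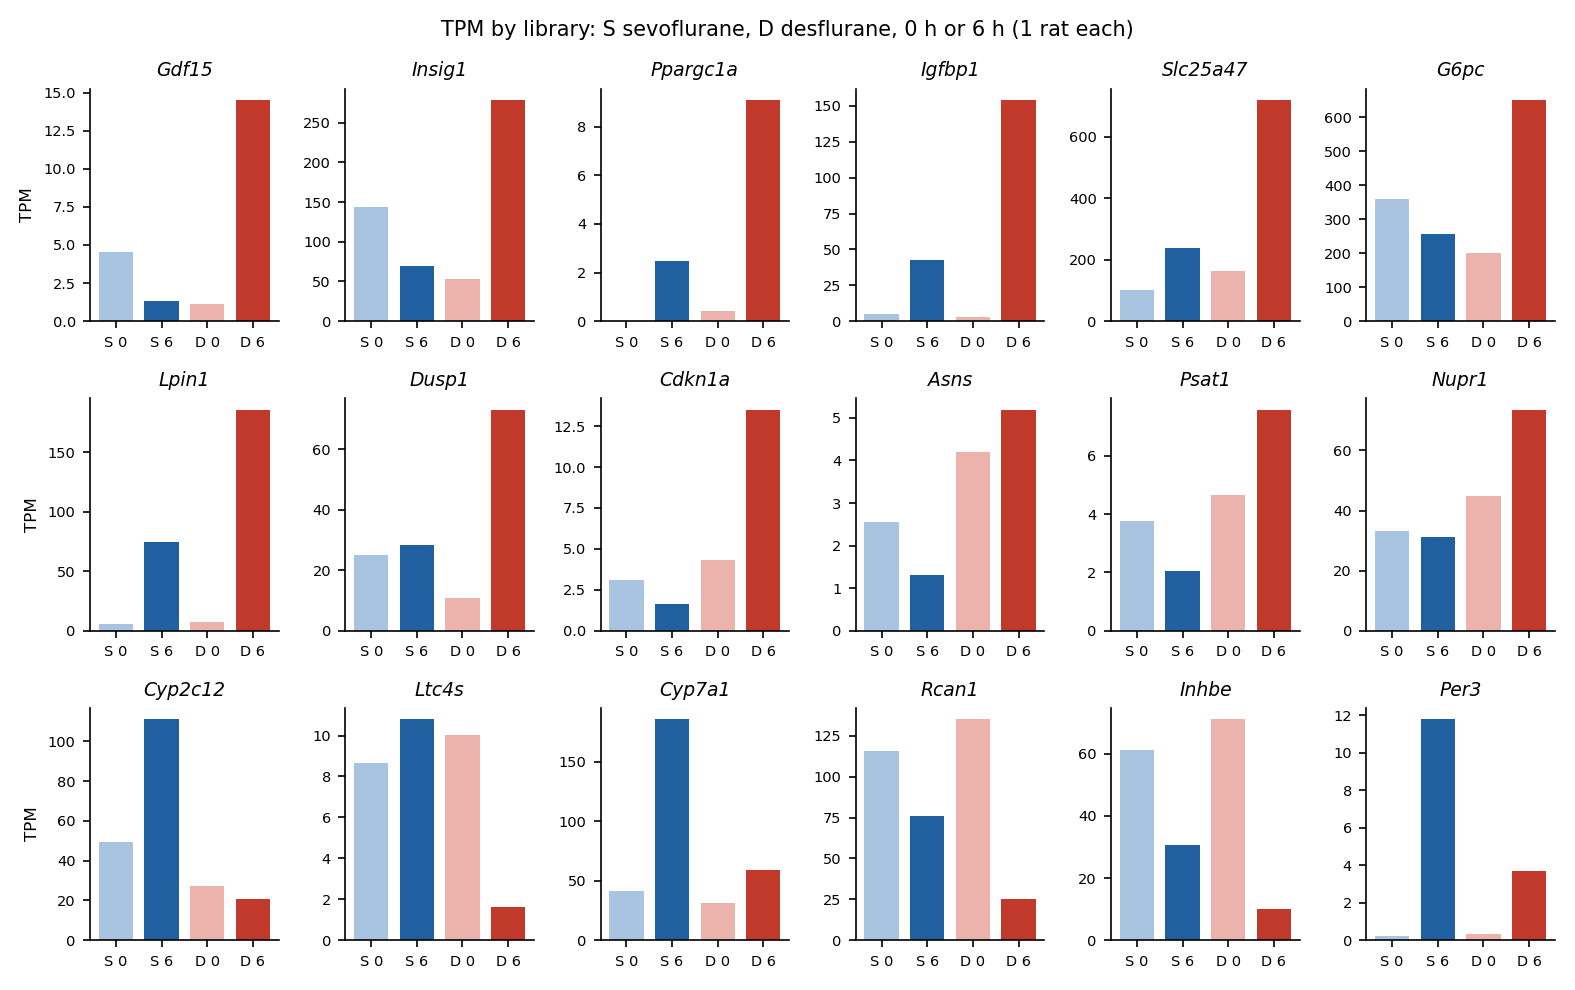
TPM of 18 genes in the 4 libraries, 1 bar per rat and 1 linear axis per gene starting at 0, with sevoflurane in blue, desflurane in red and the 0 h controls in pale colors. The upper 12 genes were higher in desflurane 6 h (D 6) than in sevoflurane 6 h (S 6), with *Gdf15* at 14.5 against 1.31, and the lower 6 were lower, with *Ltc4s* at 1.62 against 10.8.

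Because many of these genes moved together, their promoters were scanned for 2 short motifs in 300 bases around the start, on both strands (RefSeq, assembly GRCr8, 250 bases upstream and 50 downstream). The first, TGACGTCA, is the full cAMP response element to which CREB and ATF proteins bind. It was found in 6 of 36 promoters of immediate early genes (16.7%), which include members below the minimum. The share was 3.43% for genes above the minimum and 1.83% for all promoters in the table. Among called genes with a promoter the full element was in 10 of 147 higher (6.80%) and in 7 of 114 lower ones (6.14%). It was thus about equally frequent on both sides. The windows below show it in capitals for genes higher in desflurane and, last, for *Rcan1*, which was lower. They are printed so that the intact element and its differing surroundings can be compared.
*Ppargc1a* (chr14:63634101-63634160, plus strand, 181 bases before the start): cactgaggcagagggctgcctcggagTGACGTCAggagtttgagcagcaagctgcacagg
*Dusp1* (chr10:17184703-17184762, plus strand, 124 bases before the start): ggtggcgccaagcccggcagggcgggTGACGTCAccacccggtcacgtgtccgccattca
*Maff* (chr7:112792710-112792769, plus strand, 51 bases before the start): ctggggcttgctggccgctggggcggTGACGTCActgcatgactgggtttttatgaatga
*Jund* (chr16:18769959-18770018, minus strand, 221 bases before the start): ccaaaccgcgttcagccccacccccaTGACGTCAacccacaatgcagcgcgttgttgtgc
*Btg2* (chr13:48087858-48087917, minus strand, 201 bases before the start): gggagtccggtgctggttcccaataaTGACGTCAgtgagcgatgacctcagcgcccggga
*Rcan1* (chr11:45118410-45118469, minus strand, 207 bases before the start): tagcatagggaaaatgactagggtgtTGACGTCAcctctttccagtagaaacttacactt

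The other motif, TGATGNAA, is the core to which C/EBP and ATF4 dimers bind in amino acid response elements (TTNCATCA on the opposite strand). It was in 7 of 34 promoters of the amino acid stress list (20.6%), which include members below the minimum. The share was 2.05% for genes above the minimum and 3.98% for all promoters in the table. As list and motif both stand for ATF4, the share of the list does not bear on the difference between the livers. Of the 147 higher genes 2 carried the motif (1.36%), and of the 114 lower genes 8 did (7.02%). *Fgf21* and *Nupr1*, higher in desflurane, and *Inhbe*, lower, all hold the same 8 letters, shown in capitals on the gene's own strand.
*Fgf21* (chr1:105221486-105221545, minus strand, 143 bases before the start): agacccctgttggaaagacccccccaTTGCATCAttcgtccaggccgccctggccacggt
*Nupr1* (chr1:190645923-190645982, minus strand, 55 bases before the start): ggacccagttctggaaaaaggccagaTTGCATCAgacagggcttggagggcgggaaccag
*Inhbe* (chr7:65064714-65064769, minus strand, 228 bases before the start): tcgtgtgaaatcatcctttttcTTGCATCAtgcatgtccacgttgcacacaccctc

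Of 35 fatty acid oxidation genes above the minimum, 6 were higher and none lower, against 2.21% and 1.77% over all genes. The 6 higher genes were 5 of 9 regulators and 1 of 22 enzymes, *Cyp4a2*. Regulators had a median of 0.86 and a control median of 0.36, and enzymes had 0.03 and 0.26. *Fgf21*, 1 of the 5 regulators, stands in the amino acid stress list too. The difference between regulators and enzymes was not tested. *Ppargc1a*, the coactivator PGC-1α of fasting and mitochondrial genes, read 0.0255 in sevoflurane 0 h, 2.48 in sevoflurane 6 h, 0.412 in desflurane 0 h and 9.09 in desflurane 6 h. *Lpin1*, a phosphatidate phosphatase and partner of PGC-1α, read 5.58, 74.03, 7.43 and 186. Both were at low levels in the controls and higher after either agent, more so after desflurane. *Ppargc1b*, the related coactivator, was also higher at 6 h (6.58 against 2.54, with controls of 0.669 and 0.895). *Pdk4*, which restrains glucose oxidation, read 12.6, 5.23, 8.55 and 15.04, and *Plin2*, a lipid droplet coat protein, read 199, 86.6, 270 and 209. In both, sevoflurane 6 h was the lowest library.

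*Cyp4a2* differed by 1.09 at 6 h and by 0.94 at 0 h, with TPM of 558 and 76.9 in sevoflurane at 0 h and 6 h and 1075 and 165 in desflurane. Its near-identical neighbor *Cyp4a3* may share reads, and the sum of both genes was 1.998-fold higher in desflurane at 6 h and 1.92-fold at 0 h. *Cpt1a*, the gate of mitochondrial fatty acid import, was equal at 6 h (249.5 in sevoflurane and 251 in desflurane) although the controls had been apart (27.9 and 77.6).

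Of 30 glucose production genes, 4 were higher and none lower, against 2.21% and 1.77% over all genes. The list median was -0.05, with a control median of 0.12. Regulators (-0.05) and enzymes (-0.03) had like medians in this list. *G6pc*, the enzyme that releases free glucose, read 361 in sevoflurane 0 h, 258 in sevoflurane 6 h, 199 in desflurane 0 h and 651 in desflurane 6 h. *Igfbp1*, a binding protein for insulin-like growth factors that insulin represses, read 5.29, 42.7, 2.74 and 154. *Cebpb*, a transcription factor that stands in the amino acid stress list too, read 42.3, 79.3, 28.4 and 168. *Irs2*, an insulin receptor substrate, read 0.659, 1.46, 0.498 and 3.15. For all 4 the desflurane control was the lowest library and desflurane 6 h the highest. *Pck1*, the first committed enzyme of glucose production, was not called (1497 and 1762 at 6 h, with controls of 527 and 942).

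Among abundant genes outside these lists, *Slc25a47*, a mitochondrial carrier of the liver, read 100, 238, 162 and 720, a 3.02-fold difference at 6 h. Its neighbor *Slc25a29*, which carries basic amino acids, read 0.590, 2.49, 0.768 and 10.9. Both lie at chr6:132736974-132767940 in the coordinates of the tables (rn6) and moved in the same order of libraries. *Coq10b*, a coenzyme Q-binding protein, read 13.5, 77.9, 17.99 and 194. *Acsm5* and *Acsm2*, acyl-CoA synthetases for medium-chain acids that lie together at chr1:189241593-189329007, were higher in desflurane at both times. *Acsm5* read 4.09 and 1.42 in sevoflurane at 0 h and 6 h and 9.94 and 10.4 in desflurane, so sevoflurane had moved and desflurane had not.

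Genes of 17 pairs called in the same direction lay within 100000 bases of each other. *Jund* and *Gdf15* lie near each other at chr16:20485028-20557978 and *Ppp1r15a* and *Fgf21* at chr1:101511899-101596822, each pair higher in desflurane. *Cyp7a1* and *Ubxn2b* (chr5:19285396-19368431) and *Rcan1* and *Smim11a* (chr11:32450587-32550523) were pairs lower in desflurane. *Jund* and *Gdf15* do not overlap, nor do *Rcan1* and *Smim11a*, *Acsm5* and *Acsm2*, or *Slc25a29* and *Slc25a47*. In other pairs, reads could be split between neighbors where gene models overlap. How often genes at large lie so close was not counted.

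Sterol synthesis differed in one member. *Insig1*, which holds back the sterol-sensing transcription factor SREBP, read 143 in sevoflurane 0 h, 69.5 in sevoflurane 6 h, 53.6 in desflurane 0 h and 279 in desflurane 6 h, a 4.01-fold difference, against the opposite difference of -1.40 between the controls. Of the 19 synthesis enzymes above the minimum none was called, 12 had positive 6 h differences and the median was 0.36, whereas 18 of 19 were negative between the controls, with a median of -0.52. *Hmgcs1*, which makes HMG-CoA, read 212, 47.5, 175 and 79.9, and *Sqle*, squalene epoxidase, 9.05, 6.91, 5.40 and 10.5. Fatty acid synthesis had a median of -0.24 at 6 h and -0.41 at 0 h over 20 genes. Its 1 called member, *Scd*, the desaturase that makes oleic acid, was lower in desflurane at both times (402 and 386 in sevoflurane at 0 h and 6 h, 153 and 158 in desflurane), so its difference at 6 h was about as large as that between the controls (-1.29 and -1.39).

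Of 48 cytochrome P450 genes above the minimum at 6 h, none was higher and 3 were lower in desflurane. Over all genes, 2.21% were higher and 1.77% lower. The list median was 0.02, with a control median of 0.11. *Cyp2c12*, known as a female-predominant form in rats, read 49.2 in sevoflurane 0 h, 111 in sevoflurane 6 h, 27.4 in desflurane 0 h and 20.5 in desflurane 6 h. The male-predominant *Cyp2c11* was not called (1772 and 1365 in the controls, 1936 and 1521 at 6 h). Reads may be split within the *Cyp2c* family, so single members are uncertain. *Cyp3a9* read 49.4, 102, 49.4 and 47.4, equal controls with sevoflurane 6 h alone apart. *Cyp17a1*, a steroid hydroxylase, read 2.94, 12.8, 5.96 and 4.94, and its control difference was called in the opposite direction.

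Several genes of this class that were higher at 6 h than in both controls missed the rule between agents. *Cyp2b1* read 5.73, 790, 12.1 and 465 and *Cyp2b2* 35.5, 418, 29.8 and 217, and the sum of these near-identical genes was 1.77-fold lower in desflurane at 6 h, with controls apart by 1.02-fold. *Por*, the electron donor of cytochromes P450, was at 538 in sevoflurane 6 h and 386 in desflurane 6 h, with controls of 21.8 and 28.6. *Alas1*, the first enzyme of heme synthesis, was at 582 and 979 (controls 73.5 and 60.9), and *Cyp2e1*, the main oxidizer of volatile anesthetics, at 1015 and 1364 (controls 543 and 610). All were within 2-fold, in both directions.

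Of 47 conjugation genes, 4 were higher and 1 (*Ugt2b*) lower, against 2.21% and 1.77% over all genes. The 4 were glutathione transferases, of which 22 were above the minimum with a median of 0.30 and a control median of 0.06. *Gstm3l* read 11.96, 6.59, 9.32 and 32.4, *Gstm5* 4.27, 1.55, 1.88 and 4.93, *Gsta3* 1.23, 0.746, 2.87 and 6.16, and *Gstt3* 57.4, 28.8, 37.7 and 61.1. In each of these the sevoflurane 6 h liver had the lowest value of the 4 libraries. *Gstm3l* and *Gstm5* belong to a cluster of near-identical genes at chr2:210685338-210766501, so the split of reads between them is uncertain. Of the NRF2 targets 1 of 21 was called, against 3.99% over all genes. It was *Akr7a3*, an aldehyde reductase, with 47.0, 23.9, 55.7 and 70.2.

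Bile acid genes split within the synthesis pathway. *Cyp7a1*, the entry enzyme, read 41.2 in sevoflurane 0 h, 186 in sevoflurane 6 h, 31.4 in desflurane 0 h and 59.1 in desflurane 6 h, so it was lower in desflurane. *Cyp8b1*, which directs synthesis to cholic acid, was higher (34.2 and 82.9 at 6 h, with controls of 41.6 and 44.3). *Akr1d1*, a later reductase, was higher too (142 and 319, with controls of 337 and 371). The other 28 of 31 genes above the minimum were not called, while 3.99% of all genes were called. The median was -0.11 with a control median of 0.14.

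Of 16 clock genes above the minimum, 2 were higher and 2 lower in desflurane, against 2.21% and 1.77% over all genes. Between the controls, 2 of all 17 clock genes found were higher and 1 lower, against 1.96% and 0.799% over all genes. The list median was 0.29 at 6 h and 0.24 at 0 h, but the parts of the list differed. The 11 late-light genes had a median of 0.05 at 6 h and 0.67 at 0 h, with 6 and 10 positive. The 5 lights-on genes had a median of 0.42 at 6 h and -0.34 at 0 h, with 4 and 1 positive. *Arntl*, the BMAL1 activator, read 22.6 in sevoflurane 0 h, 0.426 in sevoflurane 6 h, 17.6 in desflurane 0 h and 2.14 in desflurane 6 h, and *Nfil3*, a repressor that runs in antiphase to *Dbp*, read 17.7, 7.66, 15.2 and 17.96. The call of *Arntl*, with a TPM of 2.14 in the higher 6 h library, was lost with a TPM minimum of 5 or 10, with a coverage minimum and with FPKM, and that of *Cry1* with either TPM minimum. Lower in desflurane were *Per3* (0.207, 11.8, 0.355 and 3.71) and *Cry1* (4.99, 3.31, 2.28 and 1.51), the latter called lower at 0 h as well. *Dbp*, a clock output factor, was at 87.9 in sevoflurane 6 h and 44.8 in desflurane 6 h, just within 2-fold, with controls of 0.400 and 1.92. *Nr1d1*, the repressor REV-ERBα, was at 7.65 and 7.95 at 6 h, after controls of 0.407 and 2.41 that were called higher in desflurane. For *Arntl*, *Per3* and *Dbp* the sevoflurane 6 h liver lay farther from its control than the desflurane 6 h liver. The hours at which the 2 rats were killed were not given, so agent and hour cannot be told apart for these genes.

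Glucocorticoid-responsive genes counted 5 higher and 1 lower of 21, against 2.21% and 1.77% over all genes, with a median of 0.39. Between the controls 4 of all 23 members found were higher and 1 lower, against 1.96% and 0.799% over all genes. The control median of the 21 was 0.06. The 5 higher at 6 h were *Cdkn1a*, *Dusp1*, *Gadd45b*, *Pdk4* and *Sgk1*, and the 1 lower was *Cyp17a1*. All but *Sgk1* were counted in other lists above too. *Sgk1*, a kinase induced by steroids, read 32.7, 8.59, 21.6 and 26.7, so sevoflurane 6 h alone was low, and *Pdk4* was lowest there too. *Mt1* and *Mt2A*, metallothioneins induced by zinc and steroids, were not called at 6 h, and their sum was 1.59-fold higher in desflurane, although the controls were 13.1-fold apart (20.2 and 263).

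Macrophage and MHC class II genes had mostly positive 6 h differences, none of which passed the rule. In bulk liver, more cells of a type and more RNA per cell cannot be told apart. Of 8 MHC class II genes above the minimum, which load peptides for helper T cells, all had positive 6 h differences (0.48 to 0.93, median 0.72), none was called, and 6 of 8 were negative between the controls. *RT1-Ba* read 28.5, 20.4, 24.2 and 37.3 and *Cd74*, the invariant chain, 139, 108, 126 and 178. The summed TPM of the class II list was 384 in sevoflurane 0 h, 305 in sevoflurane 6 h, 356 in desflurane 0 h and 501 in desflurane 6 h. The 28 class I genes above the minimum split into 16 positive and 12 negative, with a median of 0.06, and 1 of them, *RT1-T24-1*, was called higher (1.21 and 2.55 at 6 h, with controls of 1.59 and 2.66). *RT1* genes resemble each other, and reads may be shared.

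Kupffer cell markers, genes of the resident liver macrophages, had the same sign. Of 21 above the minimum, 20 were positive, none was called, and the median was 0.41 with a control median of -0.11. The summed TPM of the list was 793, 666, 740 and 868, lowest in sevoflurane 6 h. *Clec4f*, the lectin that defines these cells, read 134, 112, 134 and 141, and *Marco*, a scavenger receptor, 44.6, 40.1, 38.6 and 58.6. Markers of other nonparenchymal cells were also mostly positive. Those of sinusoidal endothelium were positive in 14 of 16, with a median of 0.13 and a control median of 0.03, and those of stellate cells in 10 of 14, with medians of 0.11 and 0.02. Hepatocyte markers were slightly negative in 19 of 20, with a median of -0.09. Few markers of T and NK cells (3 of 26) and of neutrophils (1 of 14) and no B cell marker were above the minimum, and *Elane*, *Fpr1*, *Ltf* and *Mpo* of the neutrophil list were at 0 in all libraries. *Gzmk*, a T cell protease, was called higher at a low level (0.684 and 2.31, with controls of 1.61 and 0.457).

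**Figure D4:**
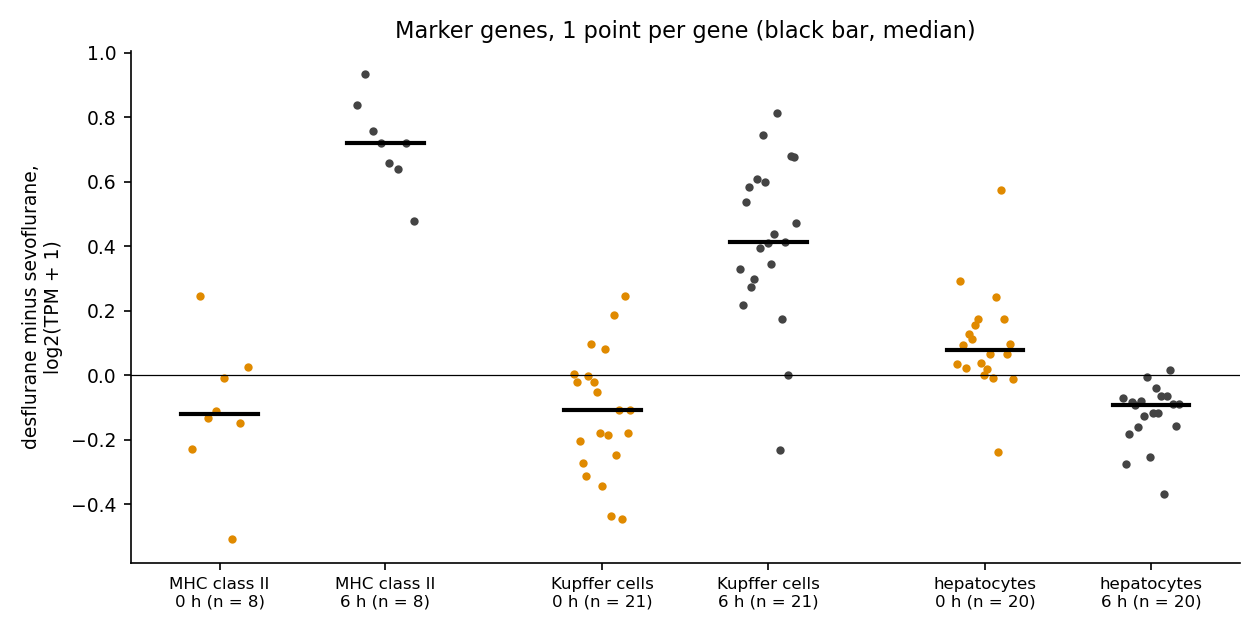
Difference of log2(TPM + 1) between desflurane and sevoflurane for MHC class II genes, Kupffer cell markers and hepatocyte markers at 0 h (orange) and at 6 h (dark grey), 1 point per gene above the minimum, with the median as a black bar. Class II genes had a median of 0.72 at 6 h and -0.12 at 0 h, and hepatocyte markers of -0.09 and 0.08.

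Interferon-response genes were near equal between the agents in the list median. Of 37, 1 was higher and none lower, against 2.21% and 1.77% over all genes. The list median was 0.03, with a control median of -0.01. The 12 interferon-gamma and GTPase genes had a median of 0.24, with 9 positive and a control median of 0.11. The 25 type I genes had a median of -0.03, with 12 positive and a control median of -0.05. The 1 called was *Gbp5*, a guanylate-binding protein (1.37 and 3.12, with controls of 4.45 and 3.55). *Irf1*, the transcription factor, was at 4.24 and 4.36 in the 6 h livers and at 19.4 and 25.97 in the controls, and *Mx2*, an antiviral GTPase, was at 9.43 and 12.1 (controls 31.1 and 23.2). *Ccl6*, a macrophage chemokine, was at 133 and 206 (controls 212 and 202) and *Il33*, an alarm cytokine, at 14.96 and 9.06 (controls 11.2 and 15.4), both within 2-fold. Of 24 heat shock genes only *Chordc1*, a co-chaperone, was called (9.79 in sevoflurane and 4.04 in desflurane, with controls of 12.1 and 16.99). None of 30 genes of protein folding in the endoplasmic reticulum was called. Over all genes 3.99% were called.

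Cell cycle genes of mitosis were positive in 11 of 11 above the minimum and higher in 5, against 2.21% higher over all genes. Only 11 of 22 mitosis genes found were above the minimum. *Aurkb* (0.423 in sevoflurane 6 h and 2.03 in desflurane 6 h), *Prc1* (0.732 and 2.14) and *Ube2c* (0.732 and 2.11) passed it only through desflurane. For such genes the minimum itself favors a positive difference and a call. The mitosis genes were also positive in 11 of 11 between the controls (medians 0.70 at 6 h and 0.36 at 0 h). *Cdk1*, the mitotic kinase, read 2.68, 1.68, 3.72 and 5.23, so both sevoflurane rats were below both desflurane rats, at low levels. Of 12 DNA replication genes, 1 (*Mcm6*) was lower and none higher, against 1.77% and 2.21% over all genes.

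**Figure D5:**
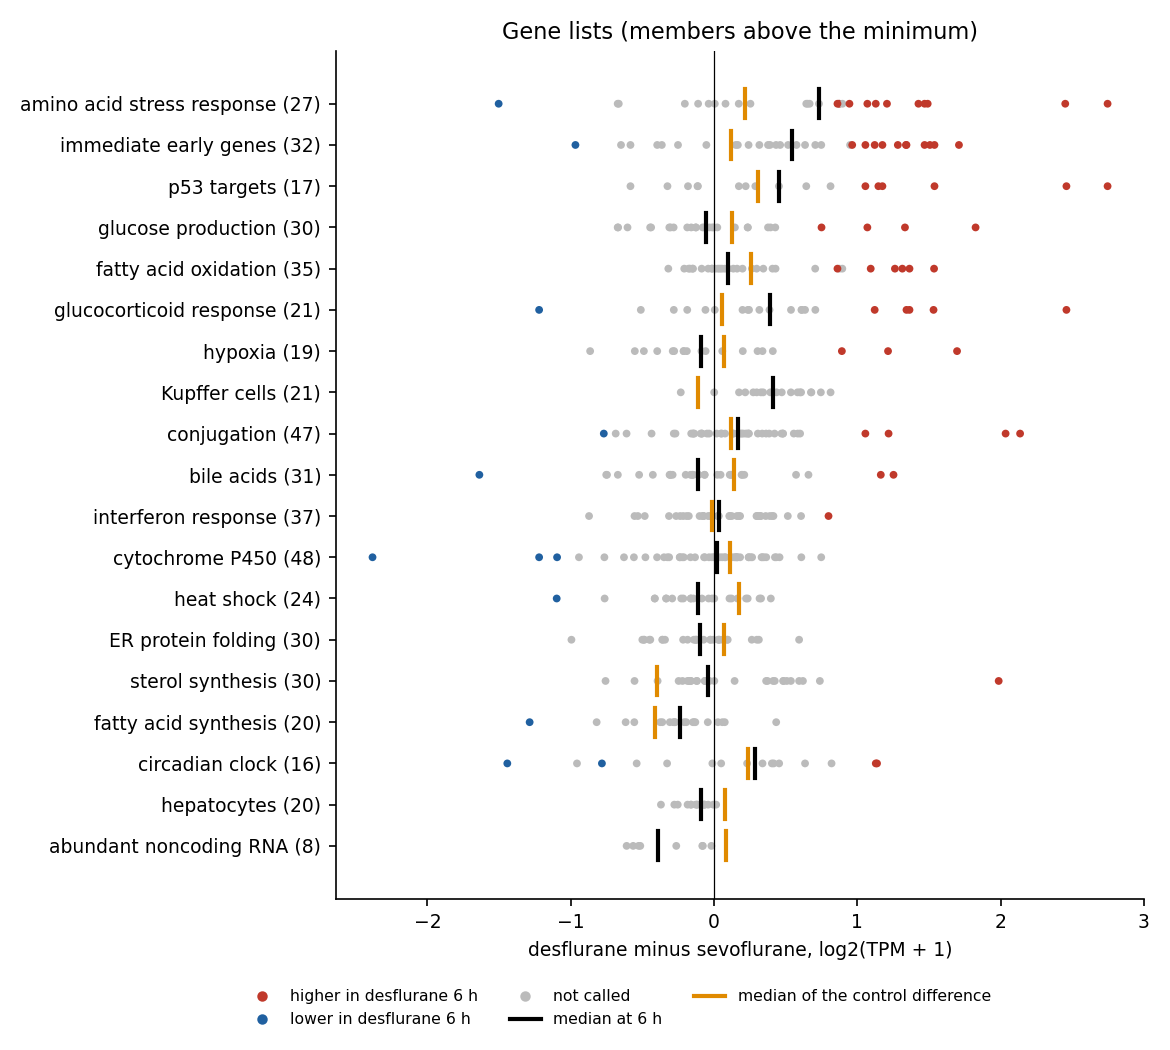
Difference of log2(TPM + 1) between desflurane and sevoflurane at 6 h for the members of 19 gene lists above the minimum (their number in brackets), 1 point per gene, with called genes in red or blue, the list median as a black bar and the median control difference as an orange bar. The medians of amino acid stress (0.73) and immediate early genes (0.55) were the highest of the lists shown and that of the abundant noncoding RNAs (-0.39) the lowest.

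Among genes lower in desflurane, *Ltc4s* read 8.67, 10.8, 10.02 and 1.62 and *Rcan1*, an inhibitor of calcineurin, 116, 76.2, 135 and 25.01. In both, desflurane 6 h was the lowest library, below each of the other values by over 3-fold. *L3hypdh*, a hydroxyproline dehydratase, read 3.71, 4.80, 3.45 and 0.680. *Acyp1* read 3.48, 6.04, 5.03 and 0.927 and *Efna5*, an ephrin, 2.30, 4.36, 3.63 and 0.731, lowest in the same library at low levels. *Stbd1*, a glycogen-binding protein, read 30.6, 35.9, 57.8 and 15.2. *Amdhd1*, of histidine breakdown, read 28.9, 63.5, 24.7 and 26.6, and there sevoflurane 6 h alone stood apart. *Scrn1* read 3.99 and 3.92 in sevoflurane at 0 h and 6 h and 18.9 and 1.36 in desflurane, called higher in the desflurane control and lower in desflurane 6 h. *Mid1ip1*, a lipogenic regulator, was called lower in desflurane at both times (90.6 and 38.5 at 0 h, 19.1 and 6.24 at 6 h).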

How the data were processed

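Each of the 4 libraries came from total RNA of liver (RNeasy Midi, TruSeq Stranded Total RNA Gold). The submitters' processing notes name HISAT2, SAMtools, StringTie and rn6. Their versions, and whether counting used strand, the sources used here do not give. The deposited TPM column was handled as a score, since assembled loci alone sum to 1000000 and named genes add 76.6% to 78.9% to that. The deposited FPKM differs from TPM by a constant factor in each library, and the deposited coverage is the mean signal depth per base, so that coverage over FPKM gives the aligned bases. No read counts were given, so no counting interval could be computed. At a TPM of 2 the mean coverage was between 4.72 and 7.28.

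Named rows with a span over 200 bases were summed by symbol (397 symbols with more than 1 row), which left 16999 genes. Assembled loci were not used. Groups followed the labels. The call rule, the pseudocount of 1 and the gene lists were chosen with earlier results of these data known. Genes were named by rank of difference, by rank within lists, by change from the control difference or from a short fixed set. *Asns*, *Nupr1*, *Atf4*, *Ddit3*, *Jun*, *Junb*, *Cpt1a*, *Pck1*, *Dusp6*, *Fosb*, *Mcm6*, *Ppp1r15a*, *Ubxn2b*, *Rn28s*, *Gas5*, *Hmgcs1*, *Sqle*, *Marco*, *RT1-Ba*, *Gadd45a*, *Ppargc1b* and the cytoskeletal genes were chosen after their values were seen, as were both promoter motifs. Promoters of 12226 symbols (71.9%) were matched in RefSeq (GRCr8), whose coordinates belong to the printed windows only. Python 3.11.15, pandas 2.3.3, numpy 2.4.6 and matplotlib 3.10.9 were used. The calling was tested on simulated data.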

Additional observations from a re-analysis of the deposited data

Results flagged for a closer look

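Genes called in opposite directions against their own control in the 2 agents were listed. With 1 rat per group the difference between the agents was not tested. Values are the change with desflurane minus the change with sevoflurane on the log2(TPM + 1) scale. Raised in desflurane and lowered in sevoflurane were *Gdf15* (4.15), *Insig1* (3.39), *Rnf125* (2.33), *Gstm5* (2.09) and *Cep63* (1.998). The reverse held for *Znrd1as1* (-2.32), *Sall1* (-2.19), *Rbp7* (-1.73) and *Zbtb26* (-1.53). In all but *Zbtb26* the controls already differed by the call rule, in the direction opposite to the 6 h difference. *Rnf125*, a ubiquitin ligase, read 62.0 and 28.2 in sevoflurane at 0 h and 6 h and 22.6 and 53.9 in desflurane, and was not called between the 6 h livers. *Znrd1as1*, an antisense gene, read 0.367, 2.44, 2.43 and 0.726 and its reads cannot be told apart from those of its partner gene where counting ignored strand. The other low genes of the list, *Sall1*, *Rbp7*, *Zbtb26* and *Cep63*, were below a TPM of 5 in every library.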

How the results depend on the processing

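No paired analysis was possible because each group held 1 library, and for the same reason no library could be left out. No call of a named gene reversed under 13 settings, and 20 of 92 called named genes kept the call in every setting. At 6 h, the number of genes higher and lower in desflurane was 275 and 248 with a TPM minimum of 1, 101 and 56 with 5, 67 and 30 with 10, 547 and 632 with a ratio of 1.5 and 50 and 33 with a ratio of 3. With FPKM, 91 were lower. At 0 h these counts were 273 and 110, 77 and 24, 39 and 18, 646 and 226, and 36 and 10. The controls had 107 higher genes with median of ratios scaling, 91 higher with FPKM, 30 lower with a coverage minimum and 108 lower with noncoding RNAs left out. Genes called alike at both times numbered 38, 8 and 5 with minima of 1, 5 and 10, 12 with the coverage minimum, 122 and 0 with ratios of 1.5 and 3, 33 without noncoding RNAs and 13 with FPKM. Those beyond the control difference were 87 and 59 with minima of 5 and 10, and 300 and 56 with ratios of 1.5 and 3. With a minimum of 10, list medians moved to -0.063 (cell cycle), 0.85 (immediate early), 1.06 (p53) and 0.14 (sterol synthesis), and the other 236 of 240 moved by less than 0.15. Fewer genes pass higher minima. Scaling by median of ratios gave 60.4% higher among called genes in place of 55.5%. Low genes in single rats remain the main limit.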

Other observations

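Genes of the actin cytoskeleton were chosen after their values were seen, as families by symbol, and are described without a test. Of 4 tropomyosins, *Tpm2* (0.448 in sevoflurane 6 h and 2.73 in desflurane 6 h) and *Tpm4* (11.5 and 25.98, with controls of 17.3 and 18.2) were higher in desflurane, while *Tpm1* (24.2 and 26.9) and *Tpm3* (28.1 and 28.6) were not called. *Actg1*, cytoplasmic actin, read 142, 140, 146 and 289, so 3 libraries were alike and desflurane 6 h stood apart, whereas *Actb* read 343, 263, 298 and 352. Of 3 CDC42 effector genes above the minimum, *Cdc42ep1* and *Cdc42ep2* were higher. *Rhob*, a small GTPase, read 10.8, 15.5, 10.2 and 34.2, and *Thbd*, the thrombin receptor thrombomodulin, 3.56, 1.96, 3.39 and 5.64.

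Other families were mixed or small in effect. Of 93 zinc finger genes named Zfp, 63 were negative at 6 h (median -0.13, against 0.14 between the controls), with 4 lower and 1 higher. Mediator subunits were negative in 17 of 24, with 2 lower, while 4451 of all 8229 genes were negative. Mitochondrial carriers of the Slc25 family split 3 and 3. Cytosolic ribosomal protein genes were positive in 73 of 79 at 6 h (median 0.20) and in 76 of 79 at 0 h (median 0.21), while the median over all genes was -0.03 and 0.12. All 8 abundant noncoding RNAs above the minimum were negative at 6 h (median -0.39), among them *Rn28s* (499 and 337, with controls of 341 and 362) and *Gas5* (40.8 and 28.04). The most abundant members barely differed. *Rn7sl1* read 161188 in sevoflurane 6 h and 152755 in desflurane 6 h (difference -0.078), and *Rpph1* read 17683 and 17468 (-0.018).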
